A study of Mus musculus with 2 samples.

Results

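The simple keratins and epithelial junction genes described here are 9 genes, chosen by symbol out of 33963 genes in the count table: Krt7, Krt8, Krt18, Krt19, Epcam, Cldn4, Cldn6, Cldn7 and Sfn. They were followed in single mouse cells of 129/Ola background, from cultures driven from the primed toward the naive state of pluripotency and from a separate naive line. The paper calls the naive and the reverted cells distinct lines that differ in genomic background. Cell line and state thus cannot be told apart in comparisons with naive cells. The 5 populations were mouse embryonic stem cells carrying Rex1-GFP (naive), epiblast stem cells carrying Oct4GIP (primed), primed cells after 8 days (d8) and after 16 days (d16) in AICAR, which activates AMPK, together with leukemia inhibitory factor (LIF), and reverted cells carried for 10 passages in 2iL, the medium of naive cells with kinase inhibitors and LIF (d16+10p). The reversion was run on mouse embryonic fibroblast feeders, on which primed cells were plated a day ahead, so tagged cells can include feeder cells. The primed tag was also found on more cells (1826) than the 500 stated for that population. So were the naive tag (801 against 500), the d16+10p tag (1151 against 1000) and the d8 tag (9627 against 9000). The d16 tag alone was found on fewer cells (4315 against 9000). The paper considered the Oct4-negative cells of its primed sample to be feeder cells. Whether feeders or wrongly assigned tags account for the many primed-tagged cells low in Pou5f1 was not tested, and this bears on every level and ratio of the primed tag. Cells low in Pou5f1 were also found under the naive and d16+10p tags, so levels of these whole tags have the same limit. All populations carried oligonucleotide tags on CD9 and CD63 antibodies and were pooled in 1 cDNA library, so each population was 1 sample and no replicate error exists.

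Keratins of simple epithelia form filaments from obligate pairs of a type II and a type I chain, with Krt8 and Krt18 as the pair that appears first in the embryo, and Krt7 and Krt19 as later additions of the type II and the type I family. Epcam is a surface adhesion protein of epithelia that is also present on pluripotent cells. Claudins seal the tight junctions between epithelial cells, and Sfn (14-3-3 sigma) is a soluble adaptor protein made mostly in epithelial cells.

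Krt8 and Krt18 are neighbours on chromosome 15 (GRCm38, GENCODE M21). Krt8 lies at 101996698 to 102004482 on the minus strand and Krt18 at 102028180 to 102032027 on the plus strand, with 23.7 kb between their annotated start sites. Krt7 is on the same chromosome at 101411043 to 101430313 on the plus strand, and Krt19 is on chromosome 11 at 100140810 to 100148665 on the minus strand. Epcam (87635979 to 87651129, plus strand) and Cldn6 (23679249 to 23682446, plus strand) are on chromosome 17. Cldn4 is on chromosome 5 (134945119 to 134946934, minus strand), Cldn7 on chromosome 11 (69964779 to 69967885, plus strand) and Sfn on chromosome 4 (133600556 to 133602168, minus strand). A processed pseudogene, Krt8-ps on chromosome 7 (23357125 to 23358069), held 0.961% as many reads as Krt8 over all cells, and reads of the 2 copies cannot be fully told apart.

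The promoters of Krt8 and Krt18, whose levels moved together, and of Epcam, which moved apart from them, are printed here from 250 bases before to 50 bases after the RefSeq start site (GRCm38.p6, in the direction of transcription). They span chr15:102004293-102004592 on the minus strand, chr15:102027966-102028265 on the plus strand and chr17:87635729-87636028 on the plus strand. Capitals mark matches on either strand to the plain letters searched, which were GCCNNNGGC (a TFAP2 motif), GGGCGG (Sp/KLF), TGANTCA (AP-1), TATAAA (the TATA box) and CCGGAAG (ETS).
Krt8: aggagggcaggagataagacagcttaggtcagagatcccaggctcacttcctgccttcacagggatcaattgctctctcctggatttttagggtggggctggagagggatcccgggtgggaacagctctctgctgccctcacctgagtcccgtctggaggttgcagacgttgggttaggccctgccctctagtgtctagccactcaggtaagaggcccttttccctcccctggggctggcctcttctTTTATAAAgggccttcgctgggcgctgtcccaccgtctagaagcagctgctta
Krt18: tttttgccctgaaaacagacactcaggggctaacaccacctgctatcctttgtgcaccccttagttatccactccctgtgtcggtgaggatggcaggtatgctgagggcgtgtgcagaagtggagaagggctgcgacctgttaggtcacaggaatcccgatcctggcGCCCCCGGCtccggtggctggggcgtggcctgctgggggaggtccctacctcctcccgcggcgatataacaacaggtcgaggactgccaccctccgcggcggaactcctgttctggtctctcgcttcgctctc
Epcam: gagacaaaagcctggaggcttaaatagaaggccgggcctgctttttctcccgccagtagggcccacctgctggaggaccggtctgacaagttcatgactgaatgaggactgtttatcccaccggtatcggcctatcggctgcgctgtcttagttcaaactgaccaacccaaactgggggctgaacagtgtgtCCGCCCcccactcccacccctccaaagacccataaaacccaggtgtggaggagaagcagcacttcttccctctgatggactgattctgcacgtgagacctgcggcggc
The Krt8 window held 2 overlapping TATA matches and no other, the Krt18 window 1 TFAP2 match and the Epcam window 1 Sp/KLF match. The TATA matches are the letters read on opposite strands and begin at -3 and -1 from the RefSeq start site. Whether they act as a TATA box was not tested. Of all 32851 RefSeq promoters of this length, 13.6% held the TATA letters, 16.6% the TFAP2 letters, 35.7% the Sp/KLF letters, 7.81% the AP-1 letters and 8.86% the ETS letters. The 3 windows thus shared none of these letters. The table of promoters matched 8 of the 9 genes, and Krt19 was not among them.

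The table held 17720 cells with 3179 to 111822 reads each: 9627 of d8, 4315 of d16, 1826 primed, 1151 of d16+10p and 801 naive. Median reads per cell ran from 10185 in d16 to 21551 in d16+10p, and no cell barcode appeared under more than 1 tag. Clusters built without these genes numbered 18. In 4 of them (clusters 4, 6, 10 and 12) at least 75% of cells had a read of Pou5f1, the gene of Oct4, and its level was at least 25% of the highest cluster's. They are called Pou5f1-high. They held 70.7% of the cells with the naive tag, 81.5% of d16+10p, 29.6% of d16, 26.0% of primed and 0.353% of d8 cells, so that the primed tag covers mostly cells that are not Pou5f1-high. Cluster 7 was macrophage-like: all 10 macrophage markers were highest there, with a sum of 29857 CPM against 265 to 449.6 CPM in the other clusters. It was used as the level that the 9 genes reach in cells that should lack them. Whether that level is background or low expression was not tested.

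Levels are given as CPM, in which the reads of all cells of a group are added up and a gene's reads are scaled to a total of 1000000, with the 95% Poisson interval in parentheses. These intervals hold counting error only. Krt8, the type II chain of the pair, stood at 385 CPM (376 to 395) in naive and 532 CPM (524 to 541) in primed cells. Under AICAR it was at 1179 CPM (1174 to 1184) on d8 and 351 CPM (346 to 355) on d16, and the expanded d16+10p cells had 310.2 CPM (303 to 317). Krt18, its type I partner, stood at 317 CPM (309 to 326) in naive, 507 CPM (498 to 515) in primed and 306 CPM (299 to 313) in d16+10p cells, with 1255 CPM (1250 to 1260) on d8 and 321 CPM (317 to 326) on d16. Both genes peaked at d8 and were then near or below the level of all naive-tagged cells. Naive cells in Pou5f1-high clusters alone stood lower, at 280 CPM of Krt8 and 202 CPM of Krt18. The d16 cells taken whole were above that in both genes. No interval of Krt8 overlapped another. For Krt18 the interval of naive cells overlapped those of d16 and d16+10p cells, and the others did not overlap.

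Krt7 and Krt19, the other chains of simple epithelia, had few reads. Krt7 was at 9.74 CPM (8.32 to 11.3) in naive, 7.59 (6.57 to 8.72) in d16+10p and 14.5 (13.1 to 16.0) in primed cells, with 19.3 (18.6 to 19.9) on d8 and 19.1 (18.02 to 20.3) on d16. Krt19 was at 16.9 CPM (15.05 to 18.99) in naive, 12.8 (11.5 to 14.3) in d16+10p and 24.5 (22.7 to 26.4) in primed cells, with 41.8 (40.8 to 42.7) on d8 and 27.0 (25.7 to 28.4) on d16. Krt7 did not differ between d8 and d16 beyond counting error, and Krt19 was highest at d8.

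Epcam had another order. It was at 39.0 CPM (36.1 to 42.1) in naive, 40.4 (38.0 to 42.9) in d16+10p and 100.1 (96.5 to 104) in primed cells, with 72.7 (71.5 to 74.0) on d8 and 52.7 (50.8 to 54.7) on d16. The highest value was that of primed cells. Naive and d16+10p cells did not differ beyond counting error.

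Among the claudins, Cldn6 was at 25.6 CPM (23.3 to 28.1) in naive, 24.7 (22.8 to 26.7) in d16+10p and 46.3 (43.8 to 48.9) in primed cells, with 81.2 (79.9 to 82.5) on d8 and 29.8 (28.4 to 31.3) on d16. Cldn4 was at 16.2 CPM (14.3 to 18.2) in naive, 15.7 (14.2 to 17.3) in d16+10p and 14.9 (13.5 to 16.4) in primed cells, with 23.4 (22.7 to 24.1) on d8 and 13.9 (12.9 to 14.9) on d16. Cldn7 had few reads. Its level was at 4.46 CPM (3.52 to 5.58) in naive, 4.73 (3.93 to 5.64) in d16+10p and 5.99 (5.12 to 6.97) in primed cells, with 10.9 (10.4 to 11.4) on d8 and 5.79 (5.17 to 6.45) on d16. Sfn was at 60.02 CPM (56.4 to 63.8) in naive, 51.3 (48.6 to 54.1) in d16+10p and 70.6 (67.6 to 73.8) in primed cells, with 124 (122 to 125) on d8 and 45.03 (43.3 to 46.8) on d16. With d16 taken whole, 7 of the 9 genes had their highest summed level in d8 beyond counting error, Epcam in primed cells, and Krt7 at d8 and d16 alike. For Krt7 this held for the summed level and not for the share of cells with a read.

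**Figure D1:**
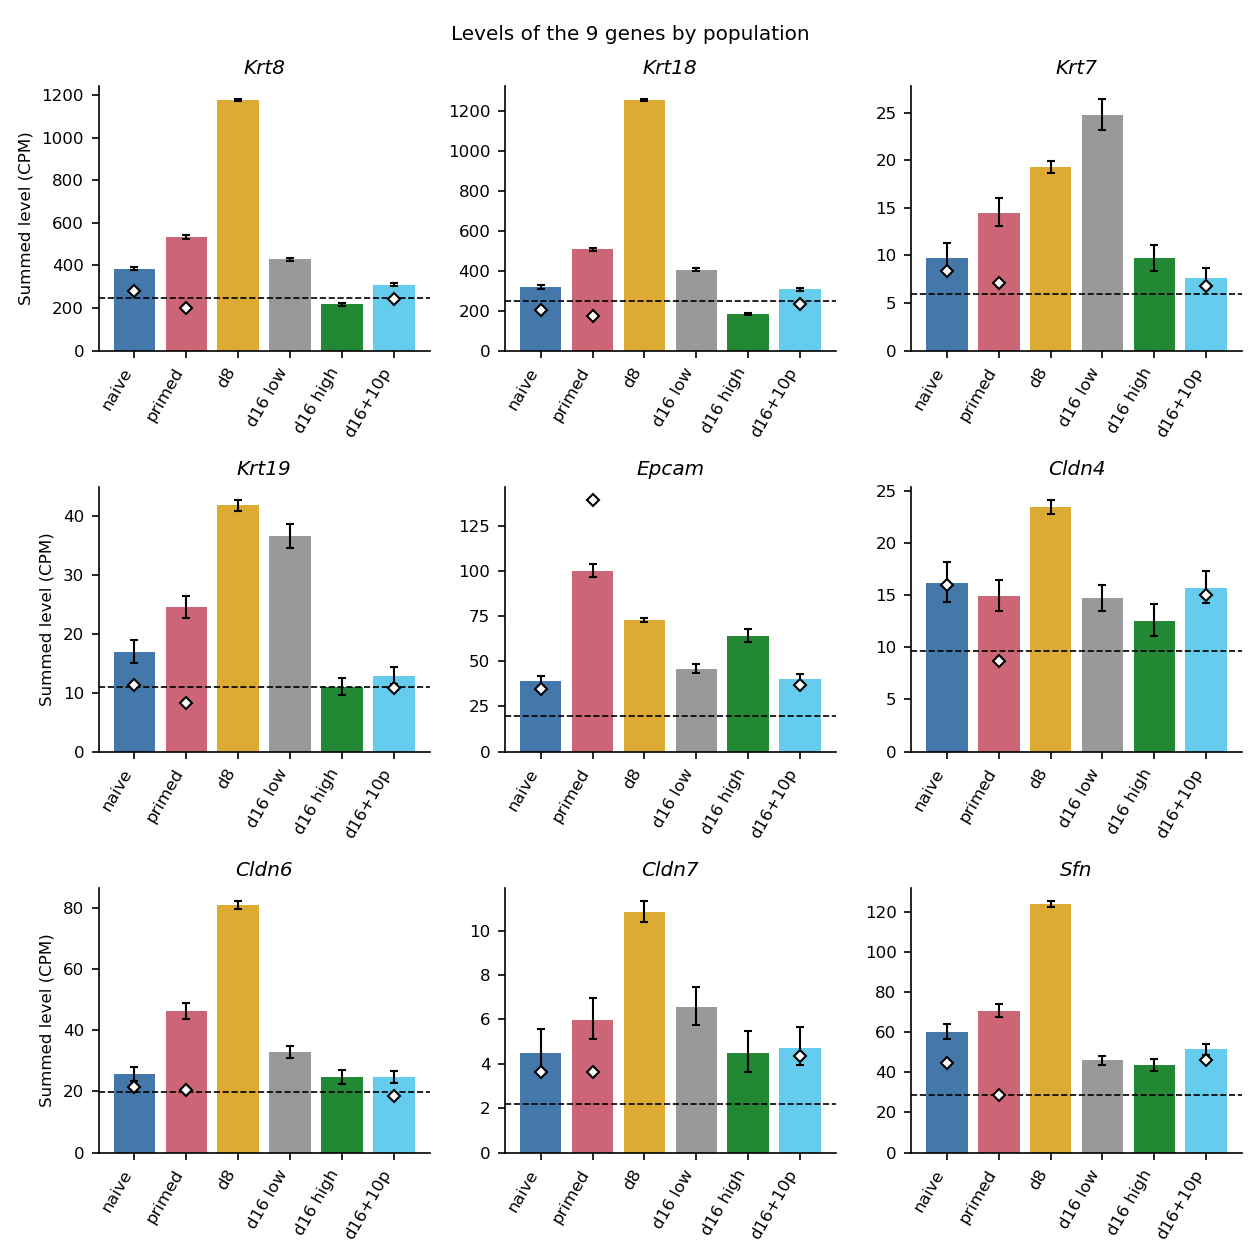
Summed level in CPM (vertical axis, from 0) of each of the 9 genes in 6 groups of cells, with d16 split into Dppa5a-low (d16 low) and Dppa5a-high (d16 high) cells. Bars are levels with 95% Poisson intervals, diamonds the naive, primed and d16+10p cells in Pou5f1-high clusters alone, and the dashed line the macrophage-like cluster: the d8 bar of Krt8 stood at 1179 CPM against a line at 249 CPM, while the diamond of primed cells lay at 202 CPM.

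The macrophage-like cluster held 249 CPM (242 to 256) of Krt8 and 249.5 CPM (242 to 257) of Krt18, values that lie in the range of the Pou5f1-high clusters. Those ran from 199.9 CPM (cluster 12, mostly primed) to 281 CPM (cluster 6, mostly d16+10p) for Krt8 and from 169 CPM (cluster 10, mostly naive) to 261 CPM (cluster 6) for Krt18. Of all 18 clusters, 11 were within 1.5-fold of the macrophage-like cluster in Krt8, that cluster included, and 5 were at least 2-fold above it. The same numbers, 11 and 5, were found for Krt18. The level of this pair in Pou5f1-high cells was thus close to that of cells that should lack it.

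How many cells had a read was compared at 5000 reads per cell. Shallower cells were dropped, 755 of d8, 604 of d16, 271 of primed, 69 of d16+10p and 68 of naive. A Krt8 read was found in 76.5% (75.6 to 77.4) of d8 cells, 65.4% (63.0 to 67.8) of primed, 62.8% (59.1 to 66.3) of naive, 59.1% (56.2 to 62.1) of d16+10p and 58.4% (56.8 to 60.04) of d16 cells, with exact binomial intervals. The macrophage-like cluster had 53.1% (49.6 to 56.5), so that much of the share in each population was also reached in cells that should lack the gene. Before thinning, 90.3% of d8 cells (15474 reads in the median cell) and 79.96% of macrophage-like cells (17378 reads) had a Krt8 read. For Krt18 the shares at 5000 reads were 73.8% in d8 and 49.0% in macrophage-like cells.

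The remaining members were sparser. At 5000 reads, Sfn was read in 24.99% of d8 cells and 9.03% of macrophage-like cells, Cldn6 in 23.9% and 7.34%, and Epcam in 22.4% and 8.42%. Krt19 was read in 12.5% of d8 cells and 5.05% of macrophage-like cells, Cldn4 in 9.12% and 3.85%, Krt7 in 7.71% and 1.56%, and Cldn7 in 3.79% and 1.08%. Unthinned shares of d8 cells were 41.5% for Sfn, 40.2% for Cldn6, 39.5% for Epcam, 24.9% for Krt19, 20.5% for Cldn4, 17.1% for Krt7 and 8.95% for Cldn7. For each of these 7 genes the interval of the d8 share lay above that of the macrophage-like cells.

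The first 8 days were compared as d8 against primed cells, with log2 ratios of CPM plus 1 and a call at 2-fold. AICAR, LIF, the change of medium and the time in culture cannot be told apart in this comparison. Krt18 was 1.31 higher on this scale (95% counting interval 1.28 to 1.33) and Krt8 1.15 higher (1.12 to 1.17). They were the only 2 of 9 members past 2-fold, none being 2-fold lower. Of all 3933 genes that reached 50 CPM on 1 side or the other 4.27% were 2-fold higher and 3.25% were 2-fold lower, and 5 of the 9 members reached that level. Sfn (0.80), Cldn6 (0.80), Cldn7 (0.76), Krt19 (0.75), Cldn4 (0.62) and Krt7 (0.39) were higher within 2-fold. Epcam differed in the other direction, at -0.46 (-0.52 to -0.40). The median over the 9 members was 0.76, and 0.80 over the 7 that reached 20 CPM, against -0.01 over all genes at that level.

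Most cells with the primed tag were outside the Pou5f1-high clusters, and in them Krt8 was at 739 CPM (726 to 752), as against 202 CPM (193 to 210) in the 474 primed cells inside. Cluster 0, with 362 primed cells, held 40.3% of the Krt8 reads of that tag, and cluster 1, with 105 primed cells, held 24.8%. When d8 was set against the primed cells of Pou5f1-high clusters alone, 8 of 9 members were 2-fold higher and none was 2-fold lower. In that comparison 14.3% of 4149 genes were 2-fold higher and 11.5% were 2-fold lower, and of the 8 members called only Krt8, Krt18, Cldn6 and Sfn reached 50 CPM. Krt18 was then 2.85 higher, Krt8 2.54, Krt19 2.22, Sfn 2.07, Cldn6 1.95, Cldn7 1.35, Cldn4 1.34 and Krt7 1.33. Epcam, at 139.6 CPM (133 to 147) in these primed cells, was at -0.93 (-1.02 to -0.86). Against the 1352 primed cells outside these clusters, an alternative chosen after the data were seen, none of the 9 members was past 2-fold in either direction, where 2.46% of 3865 genes were 2-fold higher and 1.03% were 2-fold lower. Krt18 was then at 0.81 (0.78 to 0.84) and Krt8 at 0.67 (0.65 to 0.70), while Epcam at -0.05 (-0.14 to 0.03) and Krt7 at 0.01 (-0.15 to 0.18) did not differ beyond counting error. The d8 calls thus depended on which primed cells were taken.

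**Figure D2:**
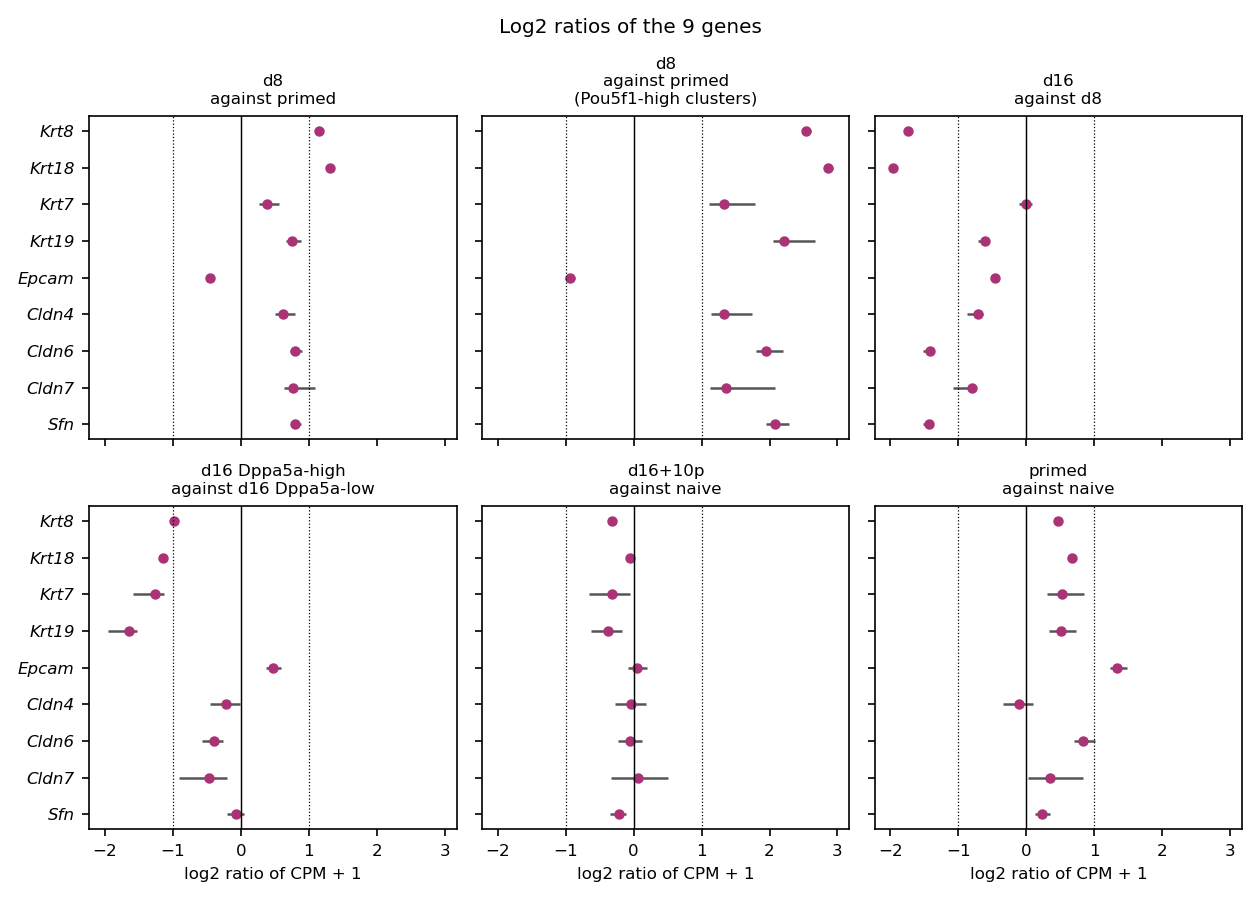
Log2 ratio of CPM plus 1 (horizontal axis) of the 9 genes in 6 comparisons named above each panel. Points are ratios, bars 95% counting intervals without the added 1, and dotted lines 2-fold: Krt8 and Krt18 stood at 1.15 and 1.31 in d8 against primed and at -1.75 and -1.96 in d16 against d8.

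The 9627 d8 cells were spread over clusters that differed widely in these genes. Cluster 1 held 2282 of them and was led by Actc1, Ly6c1, Krt18, Aif1l, Krt8 and Cryab, together with Acta2, Cnn1 and Tpm1 of the contractile apparatus. Its d8 cells made up 27.7% of the d8 reads but 57.9% of the Krt18 reads and 54.5% of the Krt8 reads. Cluster 0, with 2476 d8 cells led by Lefty1, Fgfbp1 and Nodal, made up 23.7% of the d8 reads, 28.0% of those of Krt8, 48.2% of those of Sfn and 41.5% of those of Epcam. Cluster 2, fibroblast-like with 2172 d8 cells led by Lox and Ccl2, made up 25.2% of the d8 reads but 4.42% of those of Krt8 and 5.26% of those of Sfn.

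By cluster over all populations, Krt8 was highest in cluster 1 at 2299 CPM (2287 to 2312), followed by cluster 14 at 1536 (1487 to 1586), cluster 0 at 1344 (1334 to 1354), cluster 8 at 924 (907 to 942) and cluster 9 at 887 (869 to 905). Krt18 was at 2583 CPM (2569 to 2596) in cluster 1, 1548 (1499 to 1599) in cluster 14, 1389.6 (1379 to 1400) in cluster 0, 939.5 (922 to 957) in cluster 8 and 515 (501 to 528) in cluster 9. The order of these 5 clusters was the same for both genes, and within it no interval overlapped that of a neighbour.

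The other members were led by clusters 0, 8 and 14. Sfn was highest in cluster 0 at 241 CPM (237 to 245), ahead of cluster 1 at 169.6 (166 to 173). Epcam, Cldn6 and Cldn7 were highest in cluster 8, led by Cer1, Lhx1, Gsc and Gata6, genes of the anterior primitive streak and endoderm. There Epcam was at 161 CPM (153 to 168), Cldn6 at 173 (165 to 181) and Cldn7 at 28.9 (25.8 to 32.2). Cluster 12, mostly primed, came next for Epcam at 144 CPM (137 to 152), and cluster 17, 46 cells led by genes of motile cilia such as Tmem212 and Cfap206, came next for Cldn7 at 25.4 CPM (14.8 to 40.7).

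Krt7, Krt19 and Cldn4 were highest in cluster 14, a group of 133 cells of which 115 were d8, led by Krt15, Tbx4 and Palm3. Its Krt19 level was 334 CPM (311 to 358), its Krt7 level 124 (110.1 to 138.5) and its Cldn4 level 52.4 (43.7 to 62.3). At 5000 reads 47.6% (38.7 to 56.7) of its cells had a Krt19 read, against 20.7% (19.1 to 22.4) in cluster 1. In the d8 cells of cluster 14, some other epithelial genes were high too, with the desmosomal Perp at 1009 CPM and Krt15, a basal keratin, at 218 CPM. Others were lower there than in d8 cells of cluster 0, such as Cdh1 at 48.7 against 89.8 CPM and Cgn at 57.7 against 108 CPM. The second highest Krt19 level, 175 CPM (148 to 206), was that of cluster 15, 78 mostly d16 cells led by Hp, Fgg and Cxcl13.

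Cluster 9, led by T, Shh and Col2a1 of the notochord and axial mesoderm, was high in keratins but not in most of the other members. Krt8 was at 887 CPM and Krt7 at 33.6 CPM (30.2 to 37.3) there, while Epcam (24.6 CPM), Cldn4 (8.49), Cldn7 (2.15) and Sfn (33.7) were within 1.5-fold of the macrophage-like cluster and Cldn6 was at 30.9 CPM (27.7 to 34.4) against 19.9 (17.9 to 22.0). No Cldn7 read was found in clusters 15 and 16, which allows up to 4.52 and 4.72 CPM by the Poisson interval.

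**Figure D3:**
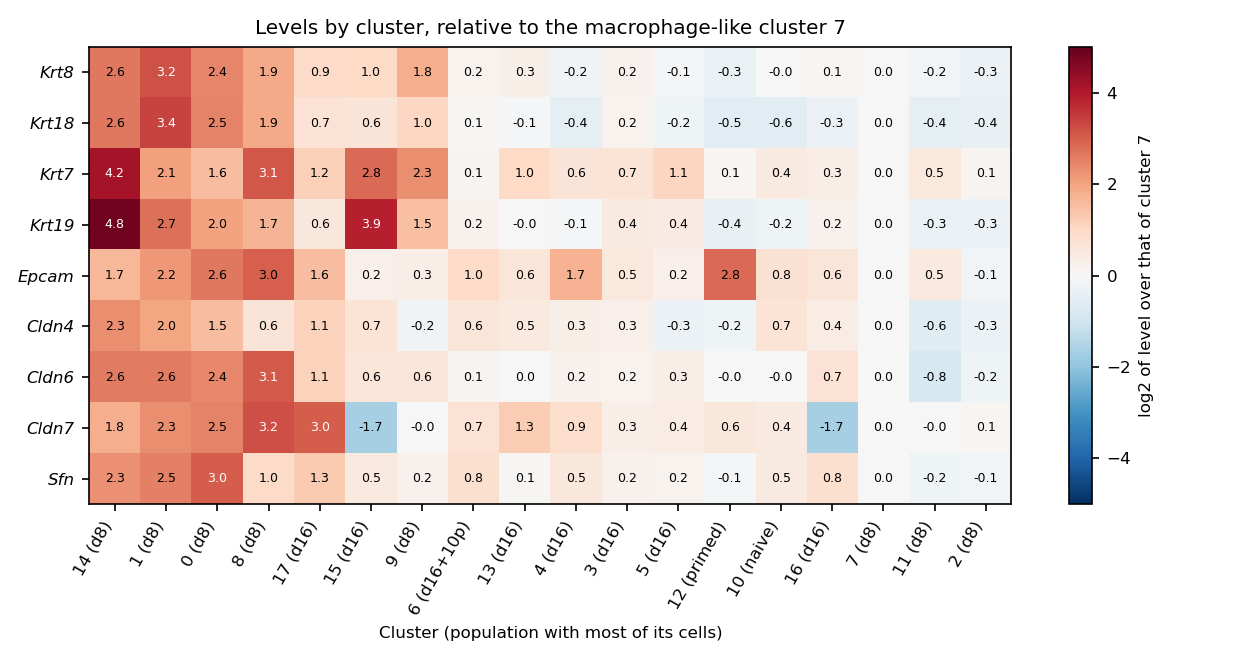
Log2 of the level of each gene (rows) in each of 18 clusters (columns, with the population that gave most of its cells) over that in the macrophage-like cluster 7, with 1 CPM added to both. Red is higher and blue lower: clusters 14, 1, 0 and 8 were among those above cluster 7 in all 9 rows. Clusters 3 and 6 were too, with Krt8 at 287 and 281 CPM against 249 CPM. The 2 values of -1.7 for Cldn7 stand for 0 reads.

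The ratio of Krt18 to Krt8 reads was not the same in all clusters. It was 1.12 (1.11 to 1.13) in cluster 1, 1.03 (1.02 to 1.04) in cluster 0, 1.02 (0.99 to 1.04) in cluster 8 and 1.00 (0.96 to 1.04) in the macrophage-like cluster. It was lower in cluster 9 at 0.58 (0.56 to 0.60) and in cluster 10, mostly naive, at 0.69 (0.66 to 0.73). The other Pou5f1-high clusters were at 0.83 (cluster 4), 0.85 (cluster 12) and 0.93 (cluster 6), each with an interval below 1. The intervals cover counting error of amplified reads only.

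Among single d8 cells the values of Krt8 were broad. The median cell was at 390.2 CPM, 10% of cells were at or below 31.8 CPM, and 10% were at or above 2929 CPM. At least 1000 CPM of Krt8 was found in 29.0% of d8 cells, 10.4% of primed, 6.74% of naive, 4.50% of d16, 3.91% of d16+10p and 2.86% of macrophage-like cells. Within d8 the share was 55.5% in cluster 1, 37.7% in cluster 0 and 1.93% in cluster 2. Vim, the intermediate filament of mesenchymal cells, was summed over groups of cells. In d8 cells it was at 5574 CPM in cluster 1, 3303 in cluster 0, 2258 in cluster 14 and 5870.1 in the fibroblast-like cluster 2. The macrophage-like cluster, with the cells of all tags, was at 3742 CPM.

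Whether the members were read in the same d8 cells was asked of 8872 cells at 5000 reads. Krt8 and Krt18 were both read in 61.6% (60.6 to 62.6) of them, where the product of the single shares, 76.5% and 73.8%, is 56.5%. The ratio of the share with both to this product was 1.09. With at least 2 reads of each gene it was 1.40, since 42.9% of cells had both and the product was 30.7%. Within clusters the excess was smaller: 74.99% against 71.96% in d8 cells of cluster 0, 84.1% against 81.9% in cluster 1, and 27.3% against 25.8% in macrophage-like d8 cells. As a description over cells of 1 library, the correlation of log2 reads plus 1 between the 2 genes was 0.78 over the 8872 cells, 0.84 over 2205 cells of cluster 1 and 0.33 over 1902 cells of cluster 2.

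Of the 36 pairs of members, 35 were read together in more d8 cells than the product of their shares, and for 34 the interval of the share with both lay above the product. The ratio was lowest for Krt7 and Sfn at 0.97 (1.87% against 1.93%) and highest for Cldn4 and Cldn7 at 2.84 (0.981% against 0.345%). Pairs of Epcam with Cldn7 (2.46) and of Cldn6 with Cldn7 (2.41) came next. Epcam and Cldn6 were both read in 9.70% (9.10 to 10.3) of cells against a product of 5.35%. All pairs share their cells, depth and library, and the d8 cells pool clusters with different levels. Epcam and Cldn6 had a ratio of 1.81 over all d8 cells, 1.27 in those of cluster 0 and 1.86 in those of cluster 9. For Cldn6 and Sfn it was 1.63 over all, 0.79 in the 110 cells of cluster 14 and 1.67 in cluster 9. The parts of depth and of the mix of clusters in these ratios were not tested.

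**Figure D4:**
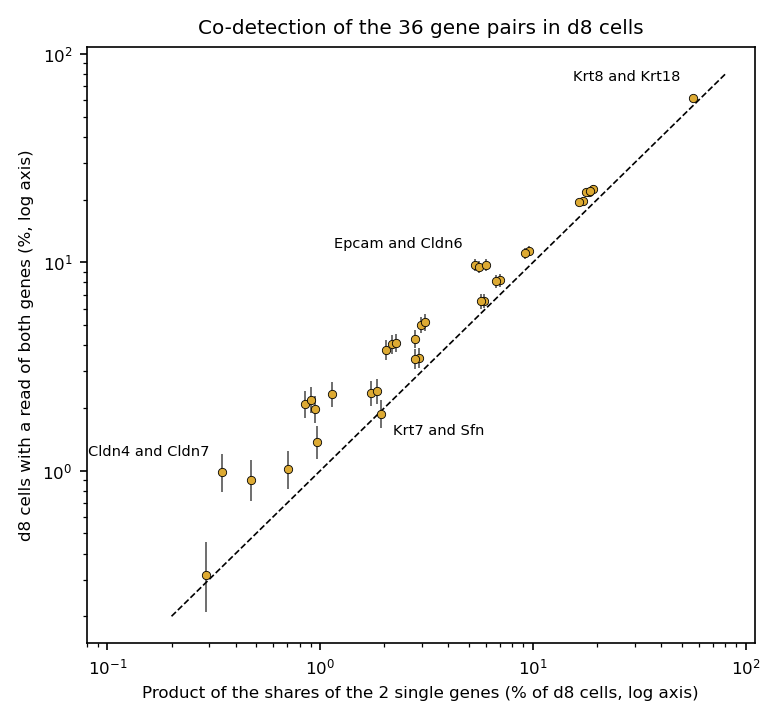
Share of d8 cells with a read of both genes of a pair (vertical axis, %, log scale) against the product of the shares of the 2 single genes (horizontal axis, %, log scale) for 36 pairs at 5000 reads per cell. Bars are exact 95% binomial intervals and the dashed line is equality: 35 of 36 pairs lay above it, with Krt7 and Sfn below at 1.87% against 1.93%.

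At 5000 reads, at least 4 of the 9 genes were read in 25.2% of d8 cells, 12.3% of primed, 8.04% of d16+10p, 6.68% of naive and 6.25% of d16 cells. The share was 58.7% in cluster 14, 40.2% in cluster 8, 38.7% in cluster 1 and 38.3% in cluster 0, against 3.13% in the macrophage-like cluster 7 and 2.62% in the fibroblast-like cluster 2. All 9 genes were read in 2 cells, both of them d16 and Dppa5a-low and both in cluster 1.

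**Figure D5:**
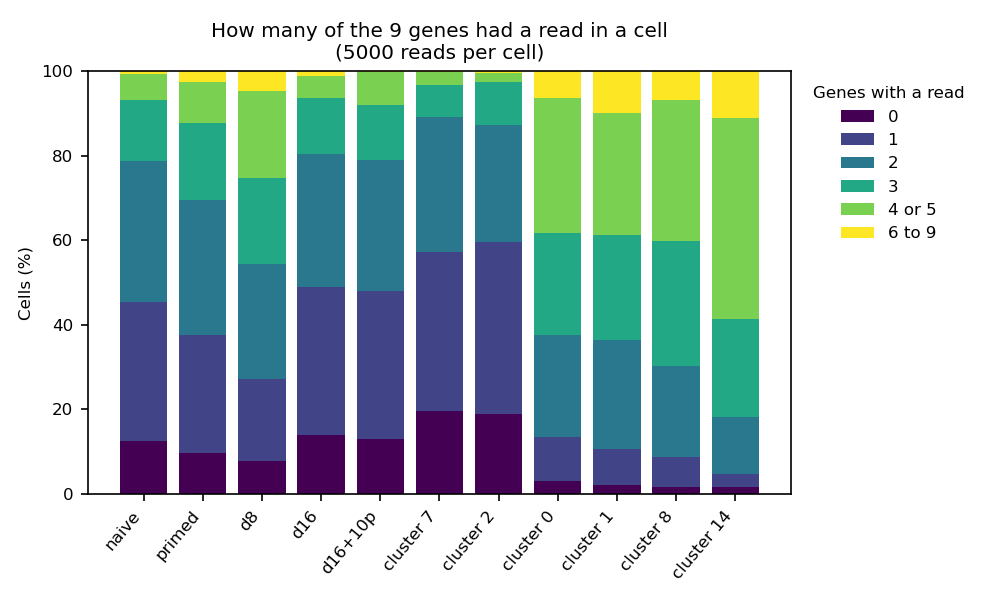
Share of cells (vertical axis, %) by how many of the 9 genes had a read at 5000 reads per cell, for 5 populations and 6 clusters. In cluster 14, 58.7% of cells had 4 or more of the genes, and in the macrophage-like cluster 7, 3.13%.

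From d8 to d16 all 9 members had a ratio below 0, and 4 were 2-fold lower. These were Krt18 at -1.96 (-1.99 to -1.94), Krt8 at -1.75 (-1.77 to -1.73), Sfn at -1.44 (-1.52 to -1.40) and Cldn6 at -1.41 (-1.52 to -1.37). Of 4037 genes at 50 CPM or more, 4.29% were 2-fold lower and 6.74% were 2-fold higher. All 4 members called reached that level. Krt7 was at -0.01 (-0.11 to 0.09), with 41.9% of its d16 reads in the 87 d16 cells of cluster 1. The median of the 9 members was -0.81, and that of the 7 members that reached 20 CPM was -1.41, against -0.00 over all genes at that level. Trimmed-mean scaling moved every ratio of this comparison by a further -0.11. This comparison shares the d8 cells with that of d8 and primed, so the 2 sets of ratios are not independent.

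The d16 cells were split at 1000 CPM of Dppa5a, Dppa5a being a gene of naive pluripotent cells. This gave 1278 Dppa5a-high and 3037 Dppa5a-low cells, of which 295 of 4315 lay between 500 and 2000 CPM. Of the high cells 95.0% lay in Pou5f1-high clusters, and of the low cells 2.14%. The split used no member, and the median depth was 14255 reads in high and 8691 in low cells.

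Krt8 was at 217 CPM (211 to 224) in Dppa5a-high and 429.6 CPM (423 to 437) in Dppa5a-low cells, Krt18 at 182 (176 to 188) and 404 (397 to 411), Krt19 at 10.9 (9.55 to 12.4) and 36.5 (34.6 to 38.6), and Krt7 at 9.68 (8.38 to 11.1) and 24.8 (23.1 to 26.5). All 4 keratins were lower in Dppa5a-high cells. Epcam was higher there, at 64.2 CPM (60.8 to 67.7) against 46.0 (43.7 to 48.3), and Sfn was at 43.5 (40.7 to 46.4) and 46.0 (43.7 to 48.3), with overlapping intervals. On the log2 scale Krt19 was at -1.65, Krt7 at -1.27 and Krt18 at -1.15, the 3 members past 2-fold, with Krt8 at -0.98 just inside. No member was 2-fold higher. In this comparison 14.9% of 4373 genes at 50 CPM or more were 2-fold lower and 13.4% were 2-fold higher, and of the 3 members called Krt18 alone had that level.

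The keratin reads of Dppa5a-low cells came in large part from few cells. The 85 of them in cluster 1, 2.80% of the cells and 5.52% of the reads, gave 51.5% of the Krt7 reads, 48.5% of the Krt19 reads and 27.8% of the Krt8 reads. With the cells of cluster 1 left out, an alternative chosen after the data were seen, none of the 9 members was past 2-fold. Krt19 was then at -0.81, Krt18 at -0.71, Krt8 at -0.61, Krt7 at -0.36 and Epcam at 0.76, and the Krt7 level of Dppa5a-low cells was 12.7 CPM in place of 24.8. The 10 cells with most reads of Krt19 held 35.8% of its reads, and those of Krt7 held 34.3%. As a share of cells at 5000 reads, Krt8 was read in 58.1% (56.1 to 60.1) of low and 59.1% (56.3 to 61.9) of high cells, and Krt19 in 6.87% (5.91 to 7.94) and 4.20% (3.15 to 5.47). In the thinned cells only Krt19 was past 2-fold, at -1.59, while Krt7 was at -0.99, Krt18 at -0.81 and Krt8 at -0.60. Sfn was then at 0.25 and Cldn4 at 0.01, where all reads gave -0.08 and -0.21. Epcam was read in 11.8% (10.5 to 13.1) of low and 24.0% (21.6 to 26.5) of high cells.

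Cells of cluster 1 differed between d8 and d16 in the minor keratins. Krt7 was at 222 CPM (202 to 243) in 87 d16 cells of that cluster and at 20.4 CPM (19.2 to 21.7) in its 2282 d8 cells, and Krt19 at 308 CPM (284 to 333) and 69.3 CPM (67.0 to 71.6). Krt8 was closer, at 2100 CPM (2037 to 2164) and 2320.4 CPM (2307 to 2334). Of the Krt19 reads of these 87 cells, 73.8% were in 10 cells, and of the Krt7 reads 65.8%. At 5000 reads Krt7 was read in 36.7% (26.1 to 48.3) of the d16 and 8.12% (7.01 to 9.34) of the d8 cells of cluster 1.

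Whether cells expanded after reversion matched naive cells was asked of d16+10p against naive cells. None of the 9 members was past 2-fold in either direction, where 0.825% of 3638 genes at 50 CPM or more were 2-fold higher and 0.412% were 2-fold lower. Ratios ran from -0.37 (-0.63 to -0.17) for Krt19 to 0.07 (-0.34 to 0.51) for Cldn7, with a median of -0.05. The intervals of Epcam, Cldn4, Cldn6 and Cldn7 held 0, and Krt8 was at -0.31 (-0.36 to -0.27). Among cells in Pou5f1-high clusters alone Krt8 was at -0.20 (-0.26 to -0.15) and Krt18 at 0.19 (0.12 to 0.25). There Krt19 was at -0.07 (-0.37 to 0.22), Krt7 at -0.26 (-0.64 to 0.07) and Sfn at 0.04 (-0.10 to 0.19), each with an interval that held 0. Cells with either tag outside these clusters held far more keratin: Krt8 was at 856 CPM (824 to 889) in 235 such naive-tagged cells and at 837 CPM (805 to 871) in 213 such d16+10p-tagged cells.

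Primed against naive cells differed past 2-fold in Epcam alone, at 1.34 (1.24 to 1.48), 1 of 9 members, with none 2-fold lower. Of 3914 genes at 50 CPM or more 2.91% were 2-fold higher and 3.93% were 2-fold lower. Cldn6 (0.83), Krt18 (0.67), Krt7 (0.53), Krt19 (0.51), Krt8 (0.46), Cldn7 (0.36) and Sfn (0.23) were higher in primed-tagged cells within 2-fold, and Cldn4 was at -0.11 (-0.34 to 0.10). In Pou5f1-high clusters alone Epcam was at 139.6 CPM (133 to 147) in primed and 34.8 CPM (31.8 to 38.1) in naive cells, a log2 ratio of 1.97 (1.85 to 2.15). There 4.01% of 3767 genes were 2-fold higher and 5.26% were 2-fold lower. Among the others, Krt8 was at -0.47 (-0.55 to -0.40), Krt18 at -0.23 (-0.31 to -0.14), Sfn at -0.62 (-0.84 to -0.44), Cldn4 at -0.81 (-1.24 to -0.53), all below naive cells, and Cldn6 was at -0.07 (-0.33 to 0.19). Epcam was read in 44.4% of these primed cells, 14.7% of these naive cells and 8.42% of macrophage-like cells at 5000 reads.

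A further 110 genes of epithelial junctions, filaments and their regulators were looked at by list. In d8 against primed cells 40 of them reached 20 CPM in either group, none was 2-fold higher and 1 was 2-fold lower, against 3.58% and 3.13% of 7797 genes at that level. The gene that was lower was Ina, a neuronal filament, at -2.69. Over all 7797 genes 3781 had a ratio above 0. Of the adherens junction and desmosome genes 9 of 11 did, led by Perp (0.72), Dsp (0.69), Dsg2 (0.68) and Jup (0.57). All 4 surface and protease partners at that level did, with Cd9 at 0.76, Spint1 at 0.61 and St14 at 0.57. Of the tight junction partners 7 of 9 did, with F11r at 0.65 and Cgn at 0.49. Of the other intermediate filaments 2 of 6 and of the keratin partners 5 of 8 had a ratio above 0, as did the 1 other claudin (Cldn12) and the 1 epithelial regulator (Klf5) at that level. Of 20 other keratins in the table none reached 20 CPM in either group. These counts used all primed-tagged cells, and none was made for the primed cells in Pou5f1-high clusters alone. Perp was at 235 CPM in d8 and 67.5 CPM in those primed cells, Dsp at 81.4 and 23.7 CPM, and F11r at 82.2 and 32.9 CPM. Some genes went the other way, such as Nefl at 89.1 and 143 CPM. The list counts can thus depend on which primed cells are taken.

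In Dppa5a-high against Dppa5a-low d16 cells 42 of these 110 genes reached 20 CPM, with 5 that were 2-fold higher and 7 that were 2-fold lower, where 12.1% and 15.6% of 8548 genes were. Among those higher were Cdh1, the cadherin of epithelia, at 1.84, Dsg2 at 1.41, the polarity gene Llgl2 at 2.40 and the transcription factors Tfap2c at 2.82 and Elf3 at 2.63. Among those lower were Cldn2 at -3.16, the coxsackievirus and adenovirus receptor gene Cxadr at -1.19, Dsp at -1.07 and the filament genes Prph (-2.65), Gfap (-2.36), Vim (-1.95) and Nes (-1.48). These counts are close to the shares over all genes.

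The genes most like the 9 members were sought over 34 groups of at least 50 cells, each the cells of 1 population in 1 cluster, by the correlation of log2 CPM plus 1 with the mean of the members. Dsp (0.91), Perp (0.91) and F11r (0.91) were first, followed by Tuft1, Spint1 and St14 (0.88, 0.88 and 0.87), Slc4a11 and Spint2 (0.86 each), Cgn and Cdc42bpg (0.85 each). Dsp and Perp belong to desmosomes, F11r and Cgn to tight junctions, and Spint1, Spint2 and St14 to the matriptase system of surface proteases. Of the members themselves Krt18 (0.96), Krt8 (0.95) and Cldn6 (0.90) were nearest to their mean, which they are part of, and Krt7 was the farthest (0.73). The groups share 1 library and come from the same clustering, and no p-value is given.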

How the data were processed

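Single-cell libraries were made with BD Rhapsody and TAS-Seq. Per the submitters' processing notes and the study's methods, the authors trimmed reads with cutadapt 2.10, mapped them with Bowtie2 2.3.4.1 to Ensembl cDNA and ncRNA of GRCm38.p6, removed doublets by tag ratio and deposited raw counts of reads per gene and cell, not of molecules. Amplified copies are therefore counted, and intervals cover counting error only. Cells of 1 tag can still hold doublets, and no caller was run here.

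The deposited counts were summed per group and scaled to CPM. The tag in each column name gave the population. Clusters came from Seurat 5.3.0 (R 4.3.3, 2000 variable genes, 56 components, 50 neighbours, resolution 0.8), after 37 listed genes had been left out of the variable genes. The macrophage-like, fibroblast-like and other markers came from lists, and unnamed clusters go by their number. With 1 sample per population no test was possible and none was made. A call means a 2-fold ratio of CPM plus 1, read against all genes with at least 50 CPM (20 CPM for lists) in either group. Intervals are 95%, Poisson for levels and Clopper-Pearson for shares and ratios (without the added 1). Shares use cells thinned to 5000 reads. Ratios and intervals were run on simulated counts with Poisson error only. Such counts hold no amplified copies and no reads gathered in few cells, so they cannot show how the intervals do there. Named genes are the members, up to 4 genes per list with the largest ratio and at least 20 CPM, the leading genes of clusters and the 10 genes most like the members. The members and lists were chosen with earlier results of these data known. Alternatives were trimmed-mean scaling (edgeR 4.0.16), means over cells, pseudocount 10, cell filters, totals without mitochondrial reads, thinning, other splits, cells inside or outside Pou5f1-high clusters, and d16 without cluster 1.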

Additional observations from a re-analysis of the deposited data

How the results depend on the processing

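Of 47 alternative values of the counts of members past 2-fold and of the co-detection of Krt8 and Krt18, 7 moved. The count for d8 against primed went from 2 to 8 when the primed cells were those in Pou5f1-high clusters only, and to 0 when they were those outside. The count for Dppa5a-high against Dppa5a-low d16 cells went from 3 to 1 at 5000 reads per cell and to 0 with the cells of cluster 1 left out. The last choice of each was made after the data were seen. The share of d8 cells with both Krt8 and Krt18 went from 61.6% to 82.5% without thinning, to 40.5% at 2000 reads per cell and to 42.9% with at least 2 reads of each gene. The cause of these moves was not tested beyond the choice itself. Of 387 alternative log2 ratios of single members, 130 lay outside the counting interval of the reported ratio, 368 had its sign and 19 the other sign. Of the 87 that belong to members past 2-fold, 78 were still past it and 0 changed sign. No paired analysis was possible because each population was 1 sample, and for the same reason no replicate could be left out. Depth limits the sparse members most, since Cldn7 was read in 3.79% of d8 cells and Krt7 in 7.71%.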
